A study of Mus musculus with 14 samples.

Results

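The 10 loci *Mid1*, *Fxyd6*, *Tmem254a*, *3830417A13Rik*, *AA465934*, *4930470H14Rik*, *Snora43*, *Mir692-1*, *Gm5779* and *Olfr856-ps1* were chosen by their FPKM ratios, which differed by more than 2-fold, in the same direction, between the libraries labelled *Taf9b* KO and WT in ES cells and in embryoid bodies (EBs) at days 2, 4 and 6. They are 10 of the 22471 named genes in the tables, and 12 of 23152 rows, because *Tmem254a* is listed at 3 places. Of these loci, 8 were lower and 2 were higher in the libraries labelled KO. Because these same ratios chose the loci, the culture values are given here as a description. The newborn spinal column and the ChIP-seq peaks took no part in the choice.

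The study asked what TAF9B, a paralog of a subunit of the core promoter factor TFIID, does in neurons. ES cells were differentiated into motor neurons with retinoic acid and the smoothened agonist SAG, and poly-A RNA was sequenced from ES cells, from EBs at days 2, 4 and 6, and from the lumbar spinal column of newborn littermates. Each genotype at each of these stages is 1 library, and 1 library of spinal cord from newborn WT mice was also sequenced. TAF9B and RNA POL2 were mapped by ChIP-seq in EBs enriched in motor neurons.

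All groups are labelled as C57BL/6. The cultures labelled wild type are the JM8 clone and those labelled TAF9B -/- are the Taf9b_BG10 clone, whose *Taf9b* coding exons were exchanged for *LacZ-Neo*. Each genotype in culture is therefore 1 ES line, so that an effect of the deletion and a difference between the lines cannot be told apart in any culture comparison. The KO mice were made by injection of the KO ES cells into albino C57BL/6 hosts and crossed to WT C57BL/6. The spinal column preparation holds cord and the tissue around it, and the same line names are attached to the tissue libraries. The ChIP cells are another WT line, the HBG3 clone. With 1 library per group, no spread between replicates exists, and no test of a condition was made. Levels are in FPKM, a count of sequenced fragments divided by the length of the transcript and by the size of the library. The tables give no read counts, and depth is therefore unknown.

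The targeted gene went against its culture labels. *Taf9b* was at 0.537, 0.516, 1.96 and 1.37 FPKM in ES cells and EBs at days 2, 4 and 6 of the libraries labelled WT. It was at 3.06, 4.08, 4.27 and 4.01 FPKM in those labelled KO, which is higher in 4 of 4 comparisons. In spinal column it was lower in the library labelled KO, at 3.31 against 6.65 FPKM. All directions below therefore refer to the label of a library and not to a measured loss of *Taf9b*. Whether the culture columns or labels are exchanged, or whether reads from exons outside the coding part count, was not tested here. The study also measured TAF9B in differentiated WT and KO cells by qRT-PCR and western blot, which were not used here. Levels of marker genes under the same labels are given next.

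The libraries labelled WT and KO also differed in cell type markers. In ES cells and at day 2, none of the 7 ES cell markers and none of the 7 fibroblast markers (ES cells are often grown on fibroblast feeders) was past 2-fold. The summed fibroblast level in ES cells was 373 FPKM labelled WT and 406 FPKM labelled KO. At day 4 all 7 fibroblast markers were more than 2-fold higher in the library labelled KO, with a summed level of 34.6 against 5.20 FPKM, as were 6 of 7 ES cell markers, at 884 against 192 FPKM. At the same stage all 5 neural progenitor markers were more than 2-fold lower in the library labelled KO, with a summed level of 47.7 against 301 FPKM. At day 6 all 6 motor neuron markers and all 6 neuron markers were more than 2-fold lower in the library labelled KO, with *Lhx3* at 0.335 against 14.9 FPKM and *Mnx1* at 1.62 against 14.3 FPKM, while the ES cell marker *Nanog* was at 172 against 62.5 FPKM. The summed motor neuron level was 3.36 FPKM labelled KO against 77.2 FPKM labelled WT, the neuron level was 136 against 1020 FPKM, and 5 of 7 ES cell markers and 4 of 7 fibroblast markers were more than 2-fold higher. In spinal column the library labelled KO held less of the neuron markers (588 against 1050 FPKM, with 3 of 6 past 2-fold). None of the 4 cartilage and bone markers was past 2-fold, with *Col2a1* at 83.6 against 156 FPKM and *Bglap2* at 14.6 against 7.90 FPKM. Of 4 skeletal muscle markers, *Ckm*, *Myh8* and *Acta1* carry the status HIDATA, have a listed 0 in at least 1 library and are not read, and *Myh3* was at 218 against 420.5 FPKM, so muscle could not be compared. The 2 erythroid markers in the tables summed to 32.2 against 17.9 FPKM. The part of these markers in the ratios of the 10 loci was not tested. In these bulk samples fewer cells of a type and less RNA per cell cannot be told apart.

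The 10 loci are of several kinds. MID1 is a RING-type ubiquitin ligase of the TRIM family that binds microtubules and, through the alpha4 protein IGBP1, controls turnover of the phosphatase PP2A, and it is known as the gene of X-linked Opitz syndrome. FXYD6 belongs to a family of small membrane proteins that tune the sodium pump. H/ACA snoRNAs guide pseudouridylation of RNA and are processed from introns of host transcripts, microRNAs are cut from hairpins, and processed pseudogenes keep the sequence of the gene they were copied from.

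The sequences of the small RNAs and of the start sites with a TAF9B peak are shown here because short features and near copies set what the values of these loci can mean. The mature microRNA that RefSeq assigns to *Mir692-1* is assigned letter for letter to *Mir692-2* and *Mir692-3* as well. Its seed, bases 2 to 8, is in capitals.

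mmu-miR-692: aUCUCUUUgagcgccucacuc

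The hairpin of *Mir692-1* (GRCm38.p6, chr17:6895229-6895337, minus strand) and that of *Mir692-2* (GRCm38.p6, chr4:125504749-125504857, plus strand) aligned with 105 identical bases over 111 positions (94.6%). In both, the mature part is in capitals.

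Mir692-1 hairpin: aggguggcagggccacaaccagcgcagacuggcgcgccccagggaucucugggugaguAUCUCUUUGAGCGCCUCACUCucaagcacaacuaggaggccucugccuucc
Mir692-2 hairpin: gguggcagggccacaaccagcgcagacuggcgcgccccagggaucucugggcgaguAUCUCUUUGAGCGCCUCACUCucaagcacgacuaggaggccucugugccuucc

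*Snora43* is a snoRNA of 139 bases (NCBIM37, chr2:26493367-26493505, minus strand), shown with a match to the H box and its ACA box in capitals. Of 2 matches to the H box letters (ANANNA), the one nearest the middle is marked. It starts at base 66 and the ACA box at base 134, with 3 bases after it, counted from the 5′ end.

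Snora43: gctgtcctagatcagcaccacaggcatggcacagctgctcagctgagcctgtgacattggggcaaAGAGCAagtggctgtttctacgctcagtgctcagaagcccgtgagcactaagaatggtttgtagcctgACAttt

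TAF9B peaks lay near the start sites of *Mid1*, *Fxyd6* and *AA465934*. The 250 bases before each start site are shown, from RefSeq promoters (table of GRCm38.p6) that matched NCBIM37 exactly at the positions given, all on the plus strand. They are chrX:166317301-166317550 for *Mid1*, chr9:45178018-45178267 for *Fxyd6* and chr11:83104951-83105200 for *AA465934*. Capitals mark bases inside the TAF9B peak, which are 214 for *Mid1*, 223 for *AA465934* and 0 for *Fxyd6*, whose peak begins after the start site.

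Mid1: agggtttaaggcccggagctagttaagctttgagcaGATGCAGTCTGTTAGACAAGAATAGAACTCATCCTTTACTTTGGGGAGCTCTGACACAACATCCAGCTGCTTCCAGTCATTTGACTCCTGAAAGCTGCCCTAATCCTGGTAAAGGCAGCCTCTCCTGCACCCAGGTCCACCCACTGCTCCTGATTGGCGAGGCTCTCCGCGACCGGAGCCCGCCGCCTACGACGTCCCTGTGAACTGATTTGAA
Fxyd6: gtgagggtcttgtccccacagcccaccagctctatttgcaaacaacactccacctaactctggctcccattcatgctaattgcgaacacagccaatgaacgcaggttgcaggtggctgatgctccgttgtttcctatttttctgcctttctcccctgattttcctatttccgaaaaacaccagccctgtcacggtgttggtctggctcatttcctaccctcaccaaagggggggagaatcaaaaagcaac
AA465934: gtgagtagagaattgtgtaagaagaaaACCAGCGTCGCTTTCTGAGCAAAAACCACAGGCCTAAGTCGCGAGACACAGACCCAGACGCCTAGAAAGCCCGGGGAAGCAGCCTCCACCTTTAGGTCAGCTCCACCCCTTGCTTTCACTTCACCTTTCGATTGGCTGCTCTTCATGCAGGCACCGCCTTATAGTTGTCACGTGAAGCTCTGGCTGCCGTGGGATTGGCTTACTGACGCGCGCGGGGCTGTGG

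The rule left few rows of the tables. Counting rows above 1 FPKM in at least 1 library of a table, 0.54% of 12032 rows were more than 2-fold higher and 0.59% more than 2-fold lower in the ES cell library labelled KO. These shares were 1.19% and 1.4% at day 2, 12.1% and 4.46% at day 4, and 10.5% and 9.93% at day 6. Of 11053 rows above 1 FPKM in every culture table, 6 rows (0.0543%) were higher in all 4 comparisons and 10 rows (0.0905%) were lower. These 16 rows are 14 genes, the 10 loci described here with *Taf9b*, *Grb10*, *Hand1* and *Mir1906-2*. Without the limit of 1 FPKM, 159 rows met the same rule, of which 143 were at or below 1 FPKM in both libraries of at least 1 table.

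Of the 10 loci, 4 sat close to the 2-fold line, at a log2 ratio of 1 in size. The smallest culture ratio in size was -1.03 for *Fxyd6* (ES cells), -1.04 for *AA465934* (ES cells), -1.06 for *Olfr856-ps1* (ES cells) and -1.07 for *Snora43* (day 4). Just outside were *Krt7*, whose smallest log2 ratio was 0.89 in ES cells, *Traip* at -0.89 in ES cells and *Fmr1nb* at -0.85 at day 2.

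**Figure D1:**
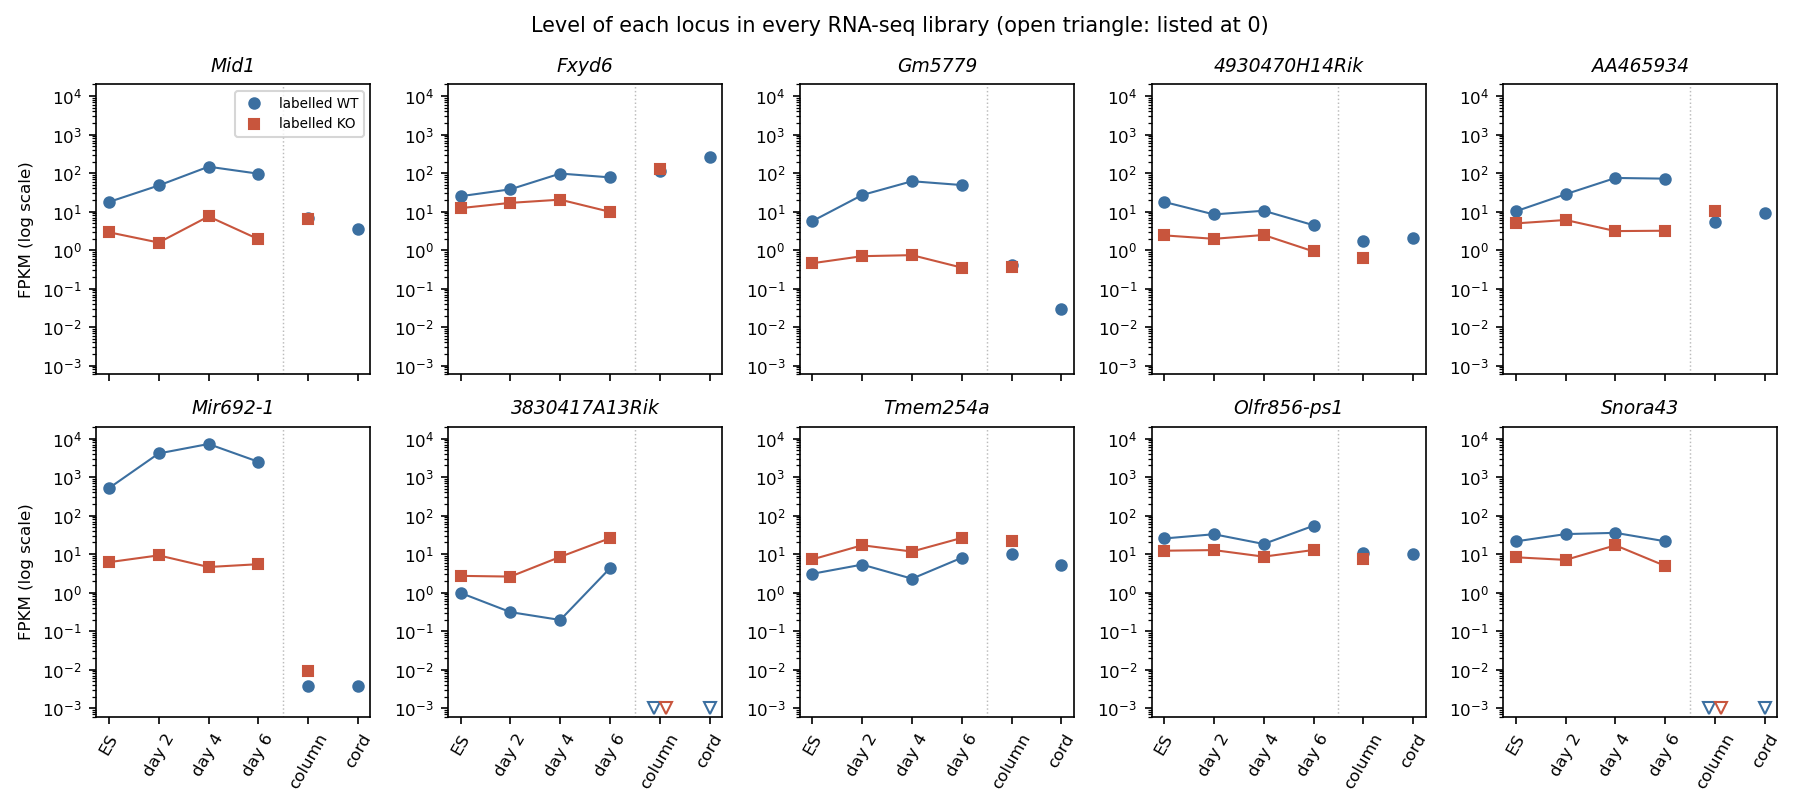
FPKM of each locus (log axis) in ES cells, in EBs at days 2, 4 and 6, in spinal column and in spinal cord, 1 library per point, with lines joining the cultures of one label and an open triangle for a value listed at 0. The culture ranges of the labels do not overlap for 8 of the 10 loci, which the same values chose, against 1.24% of 11053 rows above 1 FPKM in every culture table, and *Mir692-1* reaches 7228 FPKM in the day 4 library labelled WT against 4.62 FPKM in that labelled KO.

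*Mid1* (NM_010797, mm9 chrX:166123179-166428729) was at 17.8 FPKM in ES cells labelled WT, and at 47.7, 147 and 96.5 FPKM in EBs at days 2, 4 and 6. The libraries labelled KO held 2.91, 1.57, 7.50 and 1.93 FPKM. Every culture labelled KO was thus below every culture labelled WT, by 6.11-fold in ES cells and by 50.1-fold at day 6. Within the label WT the level at day 4 was 8.26 times that in ES cells, and within the label KO it was 2.58 times. These course values cross tables that were normalized separately.

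In spinal column the difference in *Mid1* was not seen. The level was 6.88 FPKM in the library labelled WT and 6.41 FPKM in that labelled KO, a log2 ratio of -0.10. Spinal cord held 3.56 FPKM, less than the 19.4 FPKM of the ES cell library in the same table.

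The RNA of genes for partners and targets of MID1 did not share the pattern of *Mid1*, and protein levels are not in these data. None of the 8 listed partners and targets above 1 FPKM was past 2-fold in ES cells, none of 8 was at day 2 and none of 9 was at day 4. At day 6, *Mid2*, the paralog of *Mid1*, was lower in the library labelled KO, at 0.489 against 1.12 FPKM. In spinal column *Gli3*, a transcription factor of hedgehog signalling, was lower at 1.38 against 3.09 FPKM. *Igbp1*, the gene of the alpha4 protein that links MID1 to PP2A, had log2 ratios of 0.05, 0.08, 0.14 and -0.24 in the 4 cultures.

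*Mid1* shares its row span with *G530011O06Rik* and *4933400A11Rik*. *G530011O06Rik* was at 2.04, 2.42, 3.94 and 1.33 FPKM in the cultures labelled WT. It was at 0.984, 2.75, 1.22 and 1.02 FPKM in those labelled KO, past 2-fold in ES cells and at day 4. The poly-A libraries are not stated to keep strand, so reads of overlapping genes cannot be told apart. Of the 31-base words in the exons of *Mid1*, 4.63% occurred elsewhere in the genome, some of them near the end of the gene on X.

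*Fxyd6* (NM_022004, chr9:45178268-45204242) was at 25.1, 38.0, 97.3 and 77.5 FPKM in the cultures labelled WT, from ES cells to day 6. The libraries labelled KO held 12.3, 16.9, 20.4 and 9.86 FPKM. The ranges of the labels did not overlap, and the gap was larger at each later stage, from 2.04-fold in ES cells to 7.86-fold at day 6. In spinal column *Fxyd6* was at 114 FPKM labelled WT and at 131 FPKM labelled KO, slightly higher instead of lower, and in spinal cord it was at 261 FPKM. None of the 31-base words in its exons occurred elsewhere.

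The sodium pump and the other FXYD genes gave no common direction. Of 12 listed genes in the tables, 6 were above 1 FPKM in ES cells and none was past 2-fold. *Fxyd1*, the gene of phospholemman, was lower in the libraries labelled KO at days 2, 4 and 6, at 0.393 against 1.04, 0.678 against 1.97 and 1.43 against 3.68 FPKM. *Fxyd5*, the gene of dysadherin, was higher at day 6, at 5.07 against 2.44 FPKM. In spinal column *Fxyd2*, the gamma subunit of the pump and the locus next to *Fxyd6*, was higher at 16.9 against 8.09 FPKM, and *Fxyd3* was higher at 37.0 against 1.83 FPKM. Beside *Fxyd6* on the other side, the protease genes *Tmprss13* and *Tmprss4* were also higher in the spinal column library labelled KO, at 2.04 against 0.0583 and 3.82 against 0.0588 FPKM.

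*Tmem254a* (NM_025311), a gene for a membrane protein of unknown function, was higher in every library labelled KO. Its levels in the cultures labelled WT were 3.08, 5.34, 2.29 and 8.04 FPKM. Those in the cultures labelled KO were 7.29, 16.9, 11.6 and 26.3 FPKM. Spinal column gave the same direction past 2-fold, 9.88 FPKM labelled WT and 21.9 FPKM labelled KO, a log2 ratio of 1.15 that compares with 1.24 in ES cells. In spinal column 9.05% of 14255 rows were more than 2-fold higher.

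The table lists *Tmem254a* at 3 places on chromosome 14 of mm9, starting at 26742784, 26882537 and 27022153, with equal values in every library. The 3 stretches of 4375 bases had 0 mismatches, and 100% of the 31-base words in its exons occurred elsewhere. A read cannot be assigned to one copy, so the value is that of the array and not of a gene. *Plac9b*, listed 3 times in the same array, was at 1.73, 1.35, 0.0364 and 1.09 FPKM labelled WT and at 4.70, 3.84, 0.992 and 5.69 FPKM labelled KO in the cultures. In spinal column it was at 29.1 FPKM labelled WT and 87.6 FPKM labelled KO. *Cphx2* and *4933413J09Rik*, low genes of the same stretch, also had log2 ratios above 1 in all 5 comparisons, from 1.03 to 4.22 for *Cphx2* and from 1.16 to 1.43 for *4933413J09Rik*. *Duxbl2* and *Duxbl3*, which lie between the copies, did not pass 2-fold in any culture, with log2 ratios from -0.23 to 0.86 for *Duxbl2* and from -0.23 to 0.99 for *Duxbl3*. In spinal column both were past 2-fold higher in the library labelled KO, *Duxbl2* at 1.76 against 0.865 FPKM and *Duxbl3* at 1.60 against 0.780 FPKM. Of the flanking genes, *Anxa11* had log2 ratios of 0.10, 0.12, 2.26 and 1.34 in the cultures, past 2-fold at days 4 and 6, and *Slmap* had ratios from -0.33 to 0.20.

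*3830417A13Rik* (NM_027512, chrX:61426723-61431953), a protein coding locus without a described function, was low in ES cells and highest at day 6 under both labels. It was at 0.980, 0.311, 0.194 and 4.32 FPKM in the cultures labelled WT and at 2.72, 2.61, 8.48 and 25.9 FPKM in those labelled KO. The values labelled KO were higher at each stage, but the culture ranges of the labels overlapped, since day 6 labelled WT was above ES cells and day 2 labelled KO. It was listed at 0 in both spinal column libraries and in spinal cord, so the comparison could not be made there. Its exons held no 31-base word found elsewhere. *Mid1* and *3830417A13Rik* lie on the same chromosome as *Taf9b*, 62.7 and 42.0 Mb from it.

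*AA465934* (NR_028363, chr11:83105201-83112479), a noncoding RNA, was at 10.2, 28.3, 74.8 and 71.8 FPKM in the cultures labelled WT. It was at 4.94, 6.06, 3.12 and 3.19 FPKM in those labelled KO. The level labelled WT at day 4 was 7.34 times that in ES cells, while the level labelled KO was 0.631 times. In spinal column the order was the opposite, 5.24 FPKM labelled WT and 10.4 FPKM labelled KO, a log2 ratio of 0.98.

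*4930470H14Rik* (NR_045764, chr17:4044658-4082995), a long noncoding RNA, was at 17.9, 8.46, 10.5 and 4.44 FPKM in the cultures labelled WT. It was at 2.42, 1.97, 2.47 and 0.926 FPKM in those labelled KO. It was lower by 4.26-fold to 7.40-fold, and its level did not climb toward day 4 under the label WT. Spinal column repeated the direction at 1.72 FPKM labelled WT and 0.615 FPKM labelled KO, a log2 ratio of -1.49, where 8.54% of rows were more than 2-fold lower. With 1 FPKM added to both values this log2 ratio was -0.75, which is under 2-fold.

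*Snora43* (NR_028572) was at 21.4, 33.1, 35.6 and 21.5 FPKM in the cultures labelled WT and at 8.26, 7.07, 16.9 and 4.93 FPKM in those labelled KO. The ranges did not overlap, although 2.10-fold at day 4 was close to the line. FPKM divides by length, and this snoRNA is 139 bases long, so its level is not set beside that of long genes. How well poly-A libraries hold it was not tested. It was listed at 0 in both spinal column libraries and in spinal cord. The table counts it in 1 row span with its host *Snhg7* and with *Snora17* (chr2:26492696-26495764). *Snhg7* was at 3.64, 10.6, 9.06 and 3.78 FPKM labelled WT and at 3.18, 11.7, 8.50 and 4.75 FPKM labelled KO. *Snora17* was at 16.6, 13.1, 31.8 and 0 FPKM labelled WT and at 24.6, 15.1, 22.2 and 19.4 FPKM labelled KO. Neither was lower in every culture labelled KO as *Snora43* was. Of the 6 listed genes for H/ACA particles, 4 encode the core proteins (*Dkc1*, *Nop10*, *Nhp2* and *Gar1*) and *Naf1* and *Shq1* encode assembly factors, and none was past 2-fold in any culture. In spinal column *Nop10*, *Nhp2* and *Shq1* were past 2-fold higher in the library labelled KO, *Nop10* at 173 against 82.5 FPKM.

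*Mir692-1* (NR_030465, chr17:7099578-7099686) had the largest ratios of the 10 loci. It was at 514, 4107, 7228 and 2497 FPKM in the cultures labelled WT and at 6.16, 9.27, 4.62 and 5.46 FPKM in those labelled KO, a log2 ratio of -10.61 at day 4. In spinal column the values were 0.00383 and 0.00931 FPKM, and in spinal cord 0.00374 FPKM, far below 1 FPKM, and their ratio is not read. FPKM divides by length, and this feature is 109 bases long, so its level is not set beside that of long genes.

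The hairpin is not a unique sequence. Of its 79 words of 31 bases, 28 (35.4%) occurred elsewhere, with places in *Ftl1*, the gene of the ferritin light chain, and in *Tulp4* and *Grik3* among them. *Ftl1* was at 4232, 6571, 3092 and 5314 FPKM labelled WT and at 4143, 6069, 5903 and 6152 FPKM labelled KO. Its level was thus high under both labels, and its log2 ratios in the cultures were between -0.12 and 0.93. Whether reads of such copies enter the *Mir692-1* values was not tested. Poly-A libraries are not made to hold mature microRNAs, and the value is not read as a level of miR-692. Of the 7 listed microRNA processing genes, none was past 2-fold in ES cells or at days 2 and 4, and *Ago1* was lower at day 6, at 7.53 against 25.5 FPKM.

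*Gm5779* (NR_033602, chr10:74814800-74815706) was at 5.67, 26.9, 61.5 and 48.9 FPKM in the cultures labelled WT. It was at 0.456, 0.696, 0.740 and 0.351 FPKM in those labelled KO, so that all 4 were below 1 FPKM. In spinal column it was at 0.414 and 0.363 FPKM and in spinal cord at 0.0294 FPKM, near the level of the cultures labelled KO or below it. Of its 31-base words, 15.1% occurred elsewhere, including in *Rplp0*, the gene of an acidic ribosomal protein. *Rplp0* was at 2210, 3329, 2625 and 2825 FPKM labelled WT and at 2577, 3917, 3393 and 3318 FPKM labelled KO, slightly higher where *Gm5779* was lower. The part of shared reads in *Gm5779* was not tested.

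*Olfr856-ps1* (NR_033621, chr9:19461483-19463124), a pseudogene of an olfactory receptor, was at 25.4, 32.8, 18.3 and 54.4 FPKM in the cultures labelled WT and at 12.2, 12.7, 8.58 and 12.8 FPKM in those labelled KO. The ranges did not overlap, with 2.08-fold in ES cells and 4.26-fold at day 6. In spinal column it was at 10.4 FPKM labelled WT and 7.61 FPKM labelled KO, a log2 ratio of -0.45, and in spinal cord at 10.3 FPKM. Of its 31-base words 38.6% occurred elsewhere, at 76119 places. The part of reads from these places in the *Olfr856-ps1* values was not tested.

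**Figure D2:**
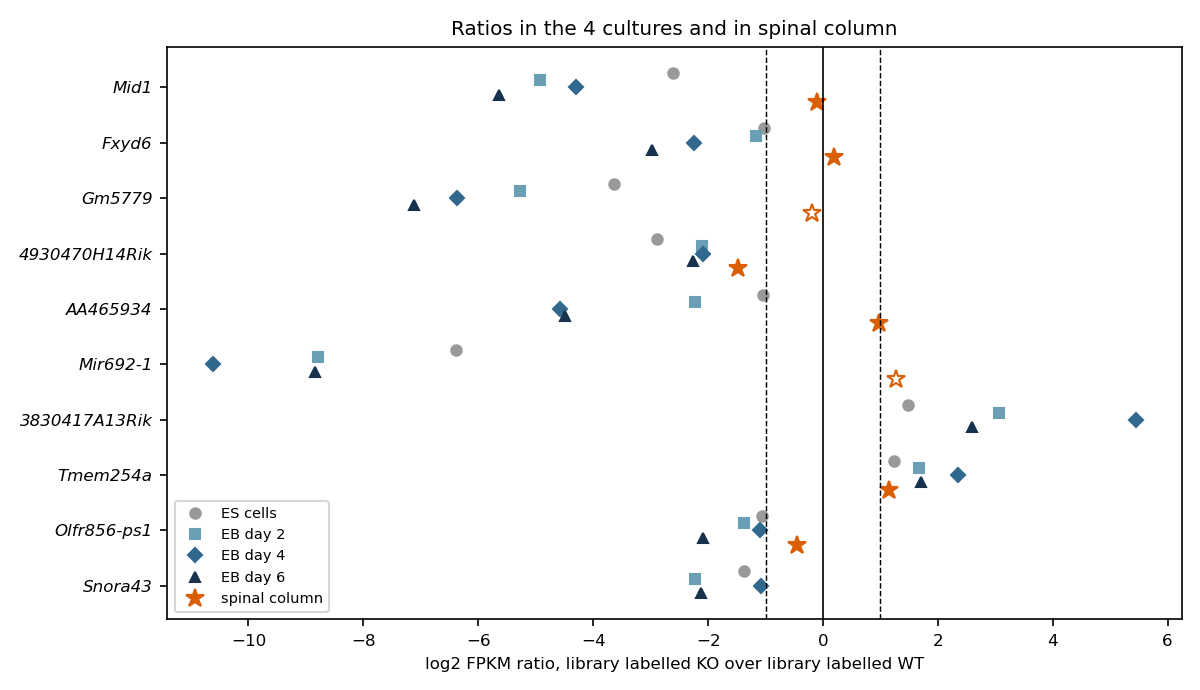
Log2 FPKM ratio, library labelled KO over library labelled WT, of each locus in ES cells, in EBs at days 2, 4 and 6 and in spinal column (star, open where both libraries were at or below 1 FPKM), with dashed lines at 2-fold. In spinal column only *4930470H14Rik* at -1.49 and *Tmem254a* at 1.15 lie past the line on their culture side among the loci above 1 FPKM.

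The spinal column repeated the culture direction past 2-fold for 2 of the 6 loci above 1 FPKM there, *Tmem254a* and *4930470H14Rik*, in a table where 9.05% of rows were past 2-fold higher and 8.54% lower. None of the 6 was past 2-fold in the opposite direction, although *AA465934* came close to it. *Mid1*, *Fxyd6* and *Olfr856-ps1* were under 2-fold, and 4 loci were at or below 1 FPKM in both libraries. Of all 159 rows that met the culture rule without a limit on level, 46 were above 1 FPKM in spinal column, where 17 were past 2-fold in the culture direction and 5 against it, beside the same shares of 9.05% and 8.54%. Copies of 1 gene are counted in these rows, *Tmem254a* and *Plac9b* with 3 rows each. Counted once per gene they were 42 genes, of which 13 were past 2-fold in the culture direction and 5 against it.

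**Figure D3:**
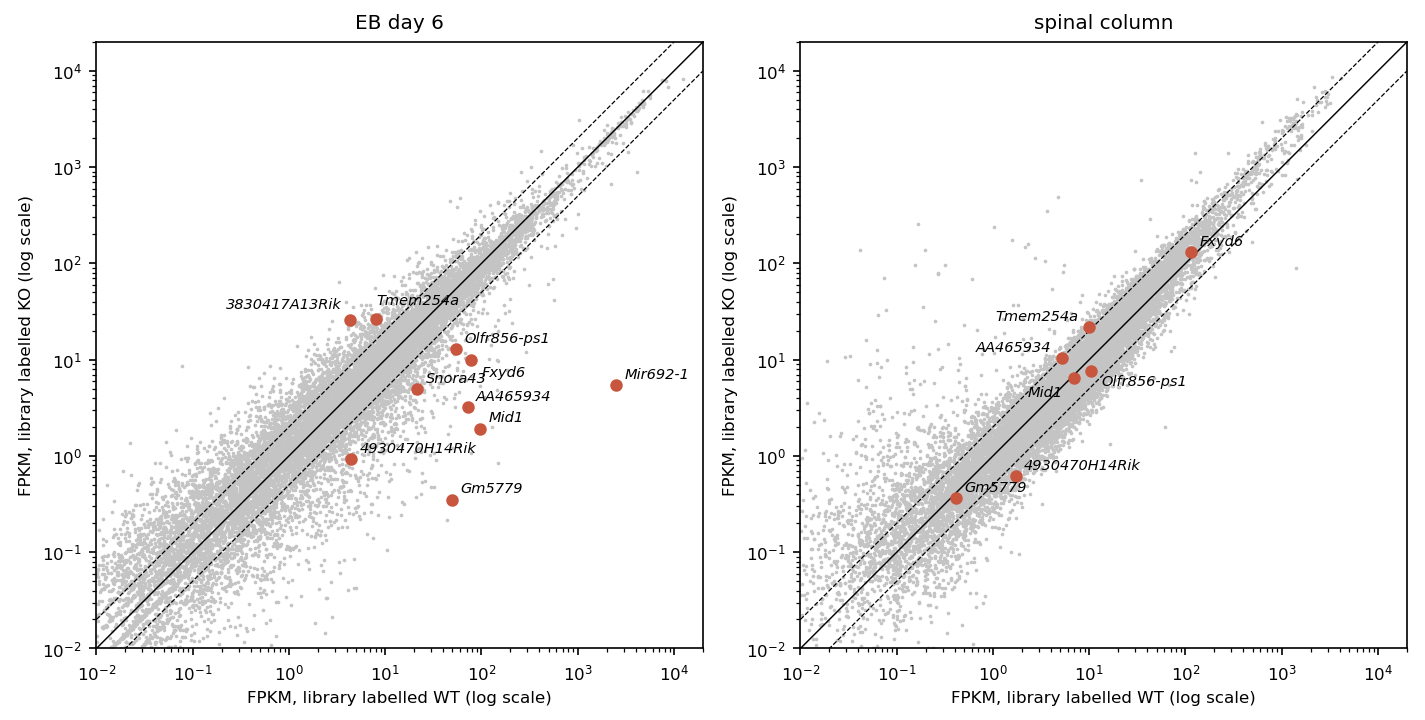
FPKM of all rows (grey) in the library labelled KO against the library labelled WT at EB day 6 and in spinal column, on log axes from 0.01 FPKM, with the loci in red and dashed lines at 2-fold. At day 6 the loci shown lie outside the dashed lines, and in spinal column *Mid1* (6.88 and 6.41 FPKM) and *Fxyd6* (114 and 131 FPKM) lie near the diagonal.

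Of the 8 lower loci, 6 were highest at day 4 in the cultures labelled WT, as were 26.3% of 11053 rows above 1 FPKM in every culture table. The loci were chosen by ratios to these same values and the rows were not, so this is not a like contrast. The 6 were *Mid1*, *Fxyd6*, *AA465934*, *Snora43*, *Mir692-1* and *Gm5779*, from 1.67 times (*Snora43*) to 14.1 times (*Mir692-1*) the ES cell level. *4930470H14Rik* was highest in ES cells and *Olfr856-ps1* at day 6. Over the 11 libraries the row whose log2(FPKM + 1) was most like that of *Mid1* was *Gm5779* (Pearson's r of 0.958 among 15755 rows), followed by *Rwdd3* (0.932) and *C330024D21Rik* (0.932). For *Fxyd6* they were *Zbtb46* (0.955), *3830406C13Rik* (0.945) and *Tmc7* (0.943). These are descriptions across libraries that share their tables and lines. The rule chose both *Mid1* and *Gm5779* by their ratios in the 8 culture libraries among the 11. The r between them therefore follows in part from the choice.

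The 10 loci lie on 7 chromosomes. *4930470H14Rik* and *Mir692-1* are 3.05 Mb apart on chromosome 17, and *Fxyd6* and *Olfr856-ps1* are 25.7 Mb apart on chromosome 9. Up to 5 named loci on each side of each locus were taken, 97 places in all, with fewer than 5 on one side of *Mid1*. Of these, 39 were above 1 FPKM in ES cells, and 1 was more than 2-fold higher and 1 lower. The lower one was *G530011O06Rik*, which overlaps *Mid1*. At day 2, 1 of 42 was higher and none lower. At day 4, 6 of 42 were higher and 4 lower, at day 6, 8 of 48 and 4, and in spinal column 10 of 55 and 7. The shares over all rows were 12.1% and 4.46% at day 4, 10.5% and 9.93% at day 6, and 9.05% and 8.54% in spinal column. A single neighbour, *Plac9b* beside *Tmem254a*, was past 2-fold in the direction of its locus in at least 3 of the 4 cultures while above 1 FPKM.

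**Figure D4:**
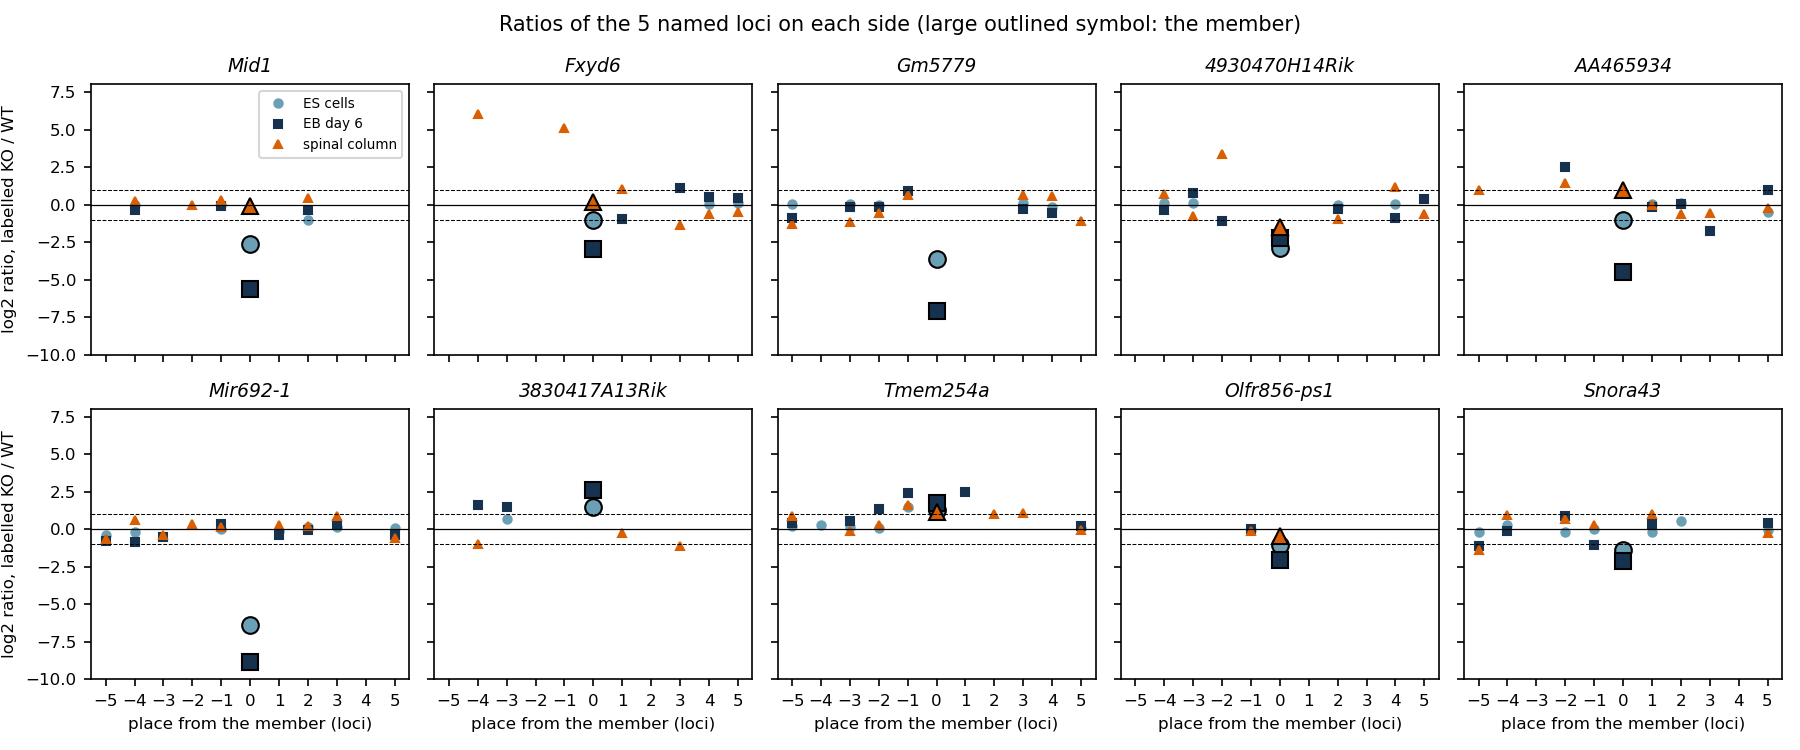
Log2 ratio, library labelled KO over library labelled WT, of up to 5 named loci on each side of each locus. Those above 1 FPKM are shown by their order along the chromosome, in ES cells, at EB day 6 and in spinal column. The locus itself is at 0 as a large outlined symbol, and dashed lines are at 2-fold. Around *Mid1* the shown neighbours stay close to 0 in ES cells apart from *G530011O06Rik* at -1.05, while *Plac9b* beside *Tmem254a* reaches 2.39 at day 6.

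The ChIP lists hold 10415 TAF9B peaks and 8620 RNA POL2 peaks. By the study's methods the ChIP cells were taken at a later day of differentiation than the last RNA library, day 6, so that the peaks and the expression set beside them are of different stages. A TAF9B peak with its middle within 500 bases of a start site was found for 3 of the 10 loci, against 30.7% of 11290 genes above 1 FPKM at day 6, a share near that of all genes. At *Mid1* the peak (mm9 chrX:166317337-166317612, MACS score 164) lay 76 bases from the third RefSeq start site of the gene, the one shown above. At *Fxyd6* it (chr9:45178311-45178588, score 159) lay 182 bases from the start, and at *AA465934* (chr11:83104978-83105309, score 211) 57 bases. The median score of the TAF9B list was 83.3. An RNA POL2 peak within the same distance was found for *AA465934* alone (score 455), against 53.5% of the 11290 genes. The nearest RNA POL2 peak was 1011645 bases from a start site of *Mid1* and 314874 bases from that of *Fxyd6*. *Snora43* had a TAF9B peak 2265 and an RNA POL2 peak 2260 bases away, over the upper end of the row span it shares with its host. For *Gm5779*, *4930470H14Rik* and *Olfr856-ps1* both ends of the row span were used as start sites, and for *AA465934* and *Tmem254a* RefSeq promoters alone. The shares of all genes used GENCODE start sites only, so the loci and all genes were not counted on like start sites. The promoter of *AA465934* was the only one of the 8 RefSeq promoters of these loci with the letters CACGTG (an E-box, searched on both strands), which 7.15% of all promoters hold.

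Y-linked genes and *Xist* were checked as marks of a difference between the lines. *Kdm5d* was higher in every culture labelled KO, at 1.65 against 0.569 FPKM in ES cells and 1.16 against 0.0166 FPKM at day 4, while spinal column held 2.71 FPKM labelled KO and 2.75 FPKM labelled WT. *Eif2s3y* and *Uty* were past 2-fold higher in ES cells, at 26.0 against 10.6 and 4.77 against 2.38 FPKM, and under 2-fold in the other comparisons. *Ddx3y* was higher but under 2-fold in all 5 comparisons, and *Xist* was below 1 FPKM in every library.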

How the data were processed

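The 11 RNA-seq libraries are in 6 tables of 23152 rows, each comparing 1 library with another. The FPKM values are as the authors deposited them, made by mapping poly-A reads to RefSeq genes with TopHat and by Cuffdiff. For the ChIP libraries the authors used Bowtie on mm9, then MACS, whose score is deposited with each peak. Tool versions are not given in the sources used here. The tables also hold the authors' fold changes and p-values for each comparison, which were not used.

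Symbols came from RefSeq accessions, and 386 rows had none. Ratios are log2 of FPKM labelled KO over WT, without a pseudocount. Rows with more than 1 FPKM in either library of a table were counted as expressed, and a row was past 2-fold by its ratio alone. A symbol with several rows was represented by the row of highest mean FPKM over the cultures. Descriptions of all rows beside the loci were added after the values were seen. With 1 library per group no comparison was tested, and the 4 culture pairs were not tested together, since their ratios chose the loci. The loci, the gene lists and the alternatives were chosen with earlier results of these data known.

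The genes named are the 10 loci, *Taf9b*, their family, copies and overlapping genes, neighbours and list members past 2-fold, other rows that meet the culture rule, and the 3 rows most like *Mid1* and *Fxyd6*. Values of flanking, copy and listed genes under 2-fold are also given for contrast, as chosen after they were seen. Exons from GENCODE vM1 were cut into words of 31 bases and searched in NCBIM37, the reference of mm9. Start sites of the loci came from GENCODE vM1 and RefSeq promoters, or from both ends of the row span. Those of all genes came from GENCODE vM1 alone. The values of 1 gene are not reported here. The rule was tested on simulated data. The software was Python 3.11.15, numpy 2.4.6, pandas 2.3.3 and matplotlib 3.10.9.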

Additional observations from a re-analysis of the deposited data

Results flagged for a closer look

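The culture rule was met by 14 genes above 1 FPKM in every culture table. Of those also above 1 FPKM in a spinal column library, 5 had the opposite sign there, each with 1 library per label. The others, *Mid1*, *Tmem254a*, *4930470H14Rik*, *Olfr856-ps1* and *Grb10*, kept the culture sign. No share over all rows was counted beside this. Of the 5, only *Taf9b* and *Mir1906-2* were past 2-fold. *Mir692-1* also had the opposite sign, at 0.00383 and 0.00931 FPKM in spinal column, and is not counted. These differences were not tested. *AA465934* was lower in 4 of 4 cultures labelled KO and had a log2 ratio of 0.98 in spinal column, at 10.4 against 5.24 FPKM. *Fxyd6* was lower in 4 of 4 cultures and had a log2 ratio of 0.20 in spinal column. *Taf9b* itself was higher in 4 of 4 cultures labelled KO and had a log2 ratio of -1.01 in spinal column.

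Of the other genes that met the culture rule, *Mir1906-2* was lower in 4 of 4 cultures and had a log2 ratio of 1.25 in spinal column, at 240.2 against 101 FPKM. *Hand1*, a transcription factor of heart and extraembryonic mesoderm, was higher in 4 of 4 cultures and had a log2 ratio of -0.96 in spinal column, at 0.795 against 1.54 FPKM.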

How the results depend on the processing

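No paired analysis was possible because, within a comparison, each group is 1 library, and no replicate could be left out. The stages pair the labels over the 4 cultures, and a fit with the stage as a block could be made there but was not, since the same ratios chose the loci. Depth is unknown, so how firmly a low value is measured cannot be given. Of 202 recomputed ratios of the 10 loci none turned its direction and 12 moved by over 1.5 times, 11 of them with 1 FPKM added. With 1 FPKM added 4 loci fell under 2-fold in ES cells and left the rule, *Fxyd6* at -0.97, *AA465934* at -0.91, *Olfr856-ps1* at -0.998 and *3830417A13Rik* at 0.91 on the log2 scale, so that 6 of 10 met it.

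The 159 rows that met the culture rule became 39 at more than 4-fold, 334 at more than 1.5-fold, 16 above 1 FPKM in at least 1 library of each table, 11 above 1 FPKM in both, and 10 with 1 FPKM added. Without ES cells 569 rows met it, without day 2 336, without day 4 263 and without day 6 263.

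From ES cells through days 2, 4 and 6 to spinal column, the share of rows past 2-fold in either direction was 1.13%, 2.58%, 16.5%, 20.4% and 17.6%. With no filter on low values these shares were 14.1%, 16.3%, 30.7%, 32.4% and 28.3%. Above 1 FPKM in both libraries they were 0.564% in ES cells and 1.08% at day 2. With 1 FPKM added they were 1.24% at day 2, 10.5% at day 4, 13.3% at day 6 and 10% in spinal column.

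With 1 FPKM added, 1 locus and not 2 repeated its culture direction past 2-fold in spinal column, since *4930470H14Rik* dropped out. The 2, 1, 10, 12 and 17 neighbours past 2-fold (same order) became 3 at day 2, 21 at day 6 and 34 in spinal column past 1.5-fold. Above 1 FPKM in both libraries ES cells had 1, and there were 5 at day 4, 7 at day 6 and 9 in spinal column, and with 3 neighbours on each side 6 at day 4 and 11 in spinal column. The 1 locus with an RNA POL2 peak became 2 within 5 kb and 4 within 50 kb, and the 3 with a TAF9B peak became 5 within 50 kb.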

Other observations

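*Grb10*, an imprinted gene for an adaptor of insulin and growth factor receptors, met the culture rule as well. It was at 83.0, 53.4, 299 and 124 FPKM in the cultures labelled WT, from ES cells to day 6, and at 32.0, 20.1, 42.8 and 14.3 FPKM in those labelled KO. Its highest level was at day 4 under both labels. In spinal column it was at 201 FPKM labelled WT and 177 FPKM labelled KO, under 2-fold.

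*Hand1* was at 1.09, 0.272, 0.120 and 1.82 FPKM in the cultures labelled WT and at 2.39, 1.59, 1.16 and 14.5 FPKM in those labelled KO. *Mir1906-2*, a microRNA hairpin of chromosome X, was at 44.1, 33.0, 48.5 and 16.0 FPKM labelled WT and at 14.5, 12.1, 20.1 and 6.18 FPKM labelled KO. As for *Mir692-1*, this short feature is not set beside long genes, and its value is not read as a level of a mature microRNA.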
